A study of Mus musculus with 6 samples.

Results

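The genes described here encode the proteins that cut the Notch receptor and those that tune how much receptor and ligand a cell can use. They are the ADAM sheddase genes Adam10 and Adam17, the gamma-secretase subunit genes Psen2, Ncstn, Psenen and Aph1a, the Numb protein genes Numb and Numbl, the ligand ubiquitin ligase gene Mib1 and the Fringe gene Rfng. They were chosen by symbol in the platform annotation, which gave 10 genes of 19057 named on the array and 25 probes of 45281. RNA of primary calvaria, which form the roof of the skull, was taken from FVB/N pups on postnatal day 3 and hybridised to 6 Illumina mouse bead arrays. The 3 wild-type arrays (WT) were the controls, and the 3 other arrays (TG) came from mice with miR34c overexpression, which the series describes as a gain of function. The sources used here do not give the promoter that drives the microRNA, the number of pups behind an array or their sex. The p-values below therefore measure the spread between these arrays.

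In Notch signalling, a ligand on one cell pulls on a receptor of its neighbour, which opens the receptor to an ADAM protease outside the membrane. Gamma-secretase, a complex of a presenilin, nicastrin, PEN-2 and an APH-1 protein, then cuts inside the membrane and frees the intracellular domain, which enters the nucleus and activates Hes and Hey genes together with RBPJ. Numb and Numb-like restrain the pathway through endocytosis of the receptor, Mind bomb 1 ubiquitinates ligands so that the sending cell can internalise them, and Radical fringe adds a sugar to the receptor. In bone, Notch signalling is known for holding osteoblast precursors back from maturation, and miR-34 family members are known for repressing Notch pathway transcripts.

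The array carries no probe annotated to a miR-34 gene, so the level of the raised microRNA was not checked here. Its hairpin is shown because it is what the TG mice overproduce, and relatives of the same family are shown to mark the shared seed, the bases 2 to 8 with which a microRNA pairs to its targets. The sequences are those of RefSeq on GRCm38.p6, written 5′ to 3′. Capitals mark the seed in the mature forms, and in the hairpin the same 7 letters as in the seeds of miR-34a-5p and miR-34b-5p.
miR-34c hairpin, chr9:51103034-51103110, minus strand: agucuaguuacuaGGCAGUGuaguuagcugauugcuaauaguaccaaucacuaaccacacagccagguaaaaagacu
miR-34a-5p, chr4:150068473-150068494, plus strand: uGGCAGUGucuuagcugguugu
miR-34b-5p, chr9:51103610-51103632, minus strand: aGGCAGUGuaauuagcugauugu
miR-34c-3p, chr9:51103044-51103065, minus strand: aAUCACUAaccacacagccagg
The miR-34a-5p and miR-34b-5p seeds were identical, and miR-34c-3p, from the other arm of the hairpin, had a different one.

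The arrays had median intensities of 125.1 to 132.6 and each detected 19680 to 21412 probes (detection p under 0.05). Osteoblast markers were present on all arrays, with the bone collagen gene Col1a2 at 12.43 to 12.85 and the osteoblast transcription factor gene Sp7 at 13.01 to 13.57 (normalised log2 intensity), while Runx2 and Spp1 had no named probe. The osteocalcin gene Bglap, a marker of mature osteoblasts, had 13.74, 13.50 and 13.91 in WT and 13.16, 12.99 and 12.66 in TG. Bglap2 was also lower on every TG array than on any WT array. The log2 differences were -0.78 ± 0.17 and -0.72 ± 0.21 (SE), each with an adjusted p of 0.9998 in limma. Of all tested probes, 7.55% had no overlap of the groups. Over the 9 tested osteoblast markers, 6 differences were negative and 3 positive, from -0.78 to 0.17. Xist, the RNA of the inactive X chromosome, was high on TG replicates 2 and 3 (9.17 and 9.34) and 4.49 to 5.12 on the other arrays, so 2 of the 3 TG arrays did not share the sex-linked pattern of the WT arrays. All 10 genes had at least 1 tested probe, that is, a probe detected on at least 3 of the 6 arrays. In all, 16 of the 25 probes were tested, 12 of which were detected on all 6 arrays. The Adam10 probe passed through TG, with detection on 3 TG arrays and 1 WT array.

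No gene of the set passed the test in either direction. With limma and Benjamini-Hochberg adjustment over 20632 tested probes, 0 of 10 genes had an adjusted p under 0.05 (each at 0.9998), against 0% of all tested probes, and 0 of 10 had an unadjusted p under 0.05, against 3.45% of all tested probes. By the brightest tested probe of each gene, 7 log2 fold changes (TG minus WT) were positive and 3 were negative, from -0.31 for Numbl to 0.23 for Adam10. Their median was 0.06, beside a median of 0.00 over all tested probes. The groups did not overlap for Adam10, higher in TG, and for Numbl, lower in TG, where 7.55% of all tested probes had no overlap, 3.62% higher and 3.93% lower in TG. Adam10 passed the filter mostly through the group where it is higher, so its separation is only a description; among the 9 genes detected on all 6 arrays the count was 1, against 7.34% of the probes detected there. Neither gene's groups were apart in the raw intensities, before normalisation. The 95% interval of the fold lay between 1.5-fold lower and 1.5-fold higher for 8 of the 10 genes, with Numbl and Rfng the exceptions. The arrays allow only bounds of that size, and a p above the threshold does not show that the levels were equal.

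**Figure D1:**
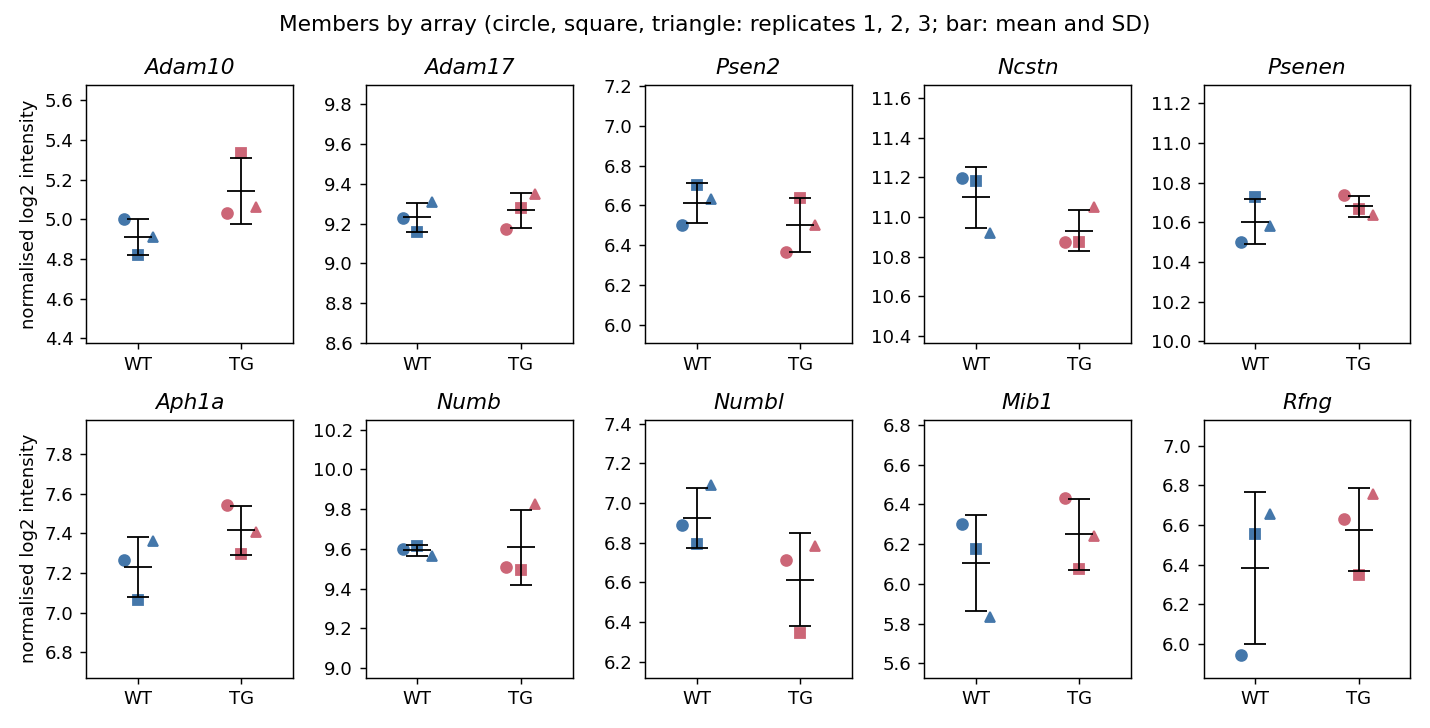
Normalised log2 intensity of the brightest tested probe of each gene, on axes that all span 1.3 log2 units, with the mean and SD of the 3 WT and the 3 TG arrays. WT and TG values overlap in 8 of the 10 panels, and in those of Adam10 and Numbl they are apart by less than the height of a marker.

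The sheddases differed in how well they were measured. Adam17, which encodes the protease also known for releasing TNF, had raw intensities of 705.4, 747.5 and 662.7 in WT and of 687.4, 685.9 and 796.2 in TG. After normalisation WT stood at 9.23, 9.16 and 9.31 and TG at 9.17, 9.28 and 9.35, so the groups overlapped. The log2 fold change was 0.03 ± 0.11 (SE; 95% interval -0.23 to 0.30), and it was negative without WT replicate 2 or without TG replicate 3. Adam10, the protease that makes the ligand-dependent cut of Notch1, had a dim probe, at 137.1, 133.5 and 128.2 in WT and 135.8, 141.7 and 140.6 in TG. The 95th percentile of the negative controls was 129.9 to 135.825 on the same arrays, so Adam10 was read at the edge of background. Its normalised values were 5.00, 4.82 and 4.91 in WT and 5.03, 5.34 and 5.06 in TG, with TG replicate 2 the highest and a gap of 0.03 between the groups. The difference was 0.23 ± 0.13 (SE, log2 scale; 95% interval -0.07 to 0.53). It was 0.06 without background correction and 0.04 in the values the authors normalised, whose dim range is compressed.

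Within gamma-secretase, Ncstn and Psen2 had negative and Psenen and Aph1a positive differences on their brightest probes, and only Ncstn had more than 1 tested probe. Ncstn encodes nicastrin, the large glycoprotein of the complex. On its brightest probe WT had 11.20, 11.18 and 10.92 and TG had 10.87, 10.87 and 11.05. WT replicate 3 and TG replicate 3 cross, so the groups overlap, and the log2 fold change was -0.17 ± 0.13 (95% interval -0.47 to 0.13). On the second probe WT had 8.44, 8.42 and 8.53 and TG had 8.22, 8.25 and 8.27. All TG arrays lay below all WT arrays there, by a gap of 0.15 log2 units, which was larger than the SD of 0.06 in WT and 0.03 in TG. In the raw intensities the groups overlapped, since TG replicate 3 had 436.4 and WT replicate 3 had 430.0. This probe was 1 of 4 without overlap after normalisation among the 16 tested probes of the set, where 7.55% of all tested probes had none. On this probe the difference was -0.22 ± 0.11 (SE, log2 scale), with an unadjusted p of 0.0779 and an adjusted p of 0.9998 in limma, a fold of 0.86 with a 95% interval of 0.723 to 1.02. It ranged from -0.26 to -0.14 over 13 alternatives, negative in all 13, with an adjusted p of at least 0.919. The third tested probe was dim and passed the filter mainly through WT, the group where it is higher, with detection on 2 WT arrays and 1 TG array. It had -0.45 ± 0.21. The probes report the same transcript in the same RNA, so they are not independent observations.

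Psen2 encodes presenilin 2, which can serve as the catalytic subunit, and the gene of its relative presenilin 1 had no named probe. Psen2 stood at 6.50, 6.70 and 6.63 in WT and at 6.37, 6.64 and 6.50 in TG. The groups overlapped, and the log2 fold change was -0.11 ± 0.13 (SE). Psenen encodes PEN-2, the small subunit needed for presenilin maturation. It had 10.50, 10.73 and 10.58 in WT against 10.74, 10.67 and 10.64 in TG, with TG replicates 2 and 3 inside the WT range, and a log2 fold change of 0.08 ± 0.12 (95% interval -0.19 to 0.35). Aph1a encodes a scaffold subunit. Its WT values were 7.27, 7.07 and 7.36 and its TG values 7.54, 7.29 and 7.41, a log2 fold change of 0.18 ± 0.13 with TG replicate 2 inside the WT range. The 4 subunit genes had 2 positive and 2 negative differences with a median of -0.02, so no common direction was measured for the complex.

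**Figure D2:**
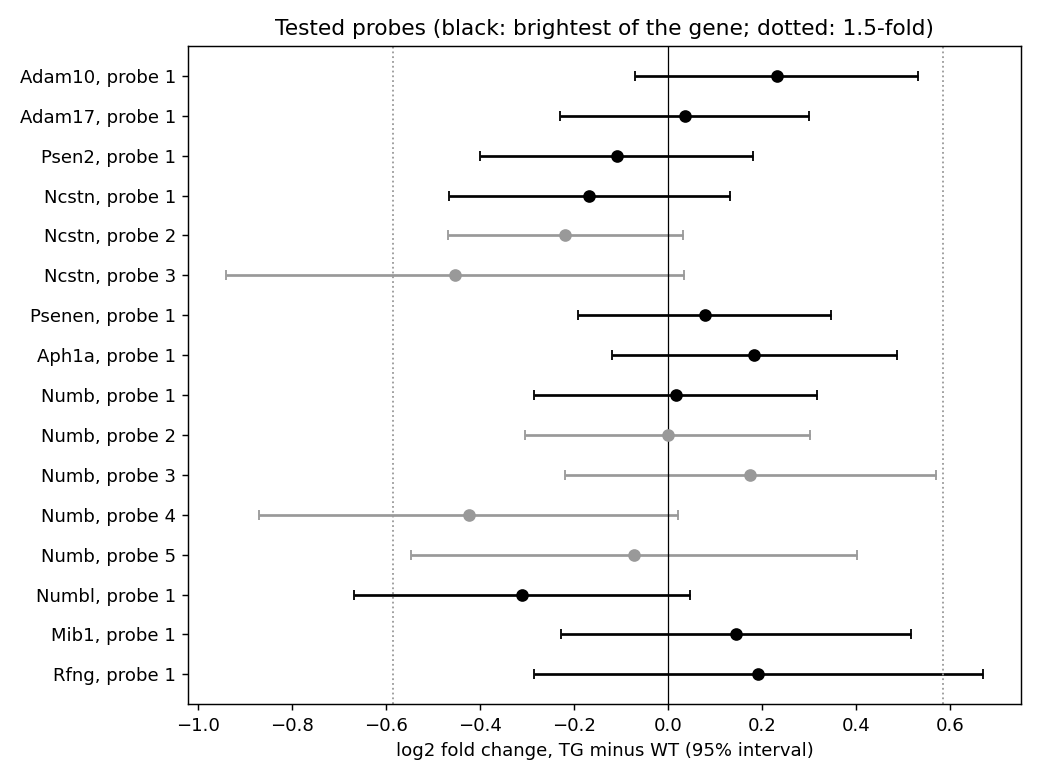
Log2 fold change (TG minus WT) with its 95% interval from limma for the 16 tested probes, brightest first within a gene. Every interval includes 0, the 3 Ncstn probes lie to the left of 0, and the Numb probes lie on both sides.

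Numb and Numbl encode closely related adaptor proteins, and their brightest probes gave different values. Numbl had raw intensities of 223.0, 231.8 and 222.6 in WT and 207.0, 180.5 and 226.3 in TG. The normalised values were 6.89, 6.79 and 7.09 in WT and 6.71, 6.35 and 6.79 in TG. TG replicate 2 was well below the other arrays, and TG replicate 3 lay only 0.008 log2 units below WT replicate 2, so the separation of the groups is narrow. The difference was -0.31 ± 0.15 (SE, log2 scale), with an unadjusted p of 0.0795 in limma and a two-sided exact permutation p of 0.1, the smallest that 3 against 3 arrays can give, a fold of 0.806 with a 95% interval of 0.629 to 1.03. Without TG replicate 2 it was -0.18, without TG replicate 3 it was -0.40, and in the values the authors normalised it was -0.12. With the mean of the Y-linked Kdm5d and Uty probes as a covariate it was -0.22 ± 0.25 (SE). That mean was 6.37 to 6.72 in WT and 6.27, 4.92 and 4.78 in TG, so its part and that of the group are hard to tell apart. On TG replicate 2 the chondrocyte marker list was highest of the 6 arrays, at 0.85 above its mean, and the osteoblast list was lowest, at -0.19. The skeletal muscle list was at 0.65 there and the neural and glial list at -0.44. The neural and glial list was lowest on WT replicate 3, at -0.80, the array where Numbl was highest. The part of these tissues in the Numbl value was not tested.

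Numb had 9.60, 9.62 and 9.56 in WT and 9.51, 9.49 and 9.83 in TG on its brightest probe. The WT arrays were tightly grouped (SD 0.03), and the TG arrays lay on both sides of them (SD 0.19). The log2 fold change was 0.02 ± 0.13 (95% interval -0.28 to 0.32), and without TG replicate 3 it was -0.09. The other 4 tested Numb probes were dim and had 0.00, 0.17, -0.42 and -0.07, in order of brightness. The probe with -0.42 ± 0.19 had 5.68, 5.55 and 5.66 in WT and 5.49, 4.76 and 5.36 in TG. It had no overlap of the groups, but TG replicate 2 carried most of the difference and was not detected there. For Numb the probes thus do not give one direction.

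**Figure D3:**
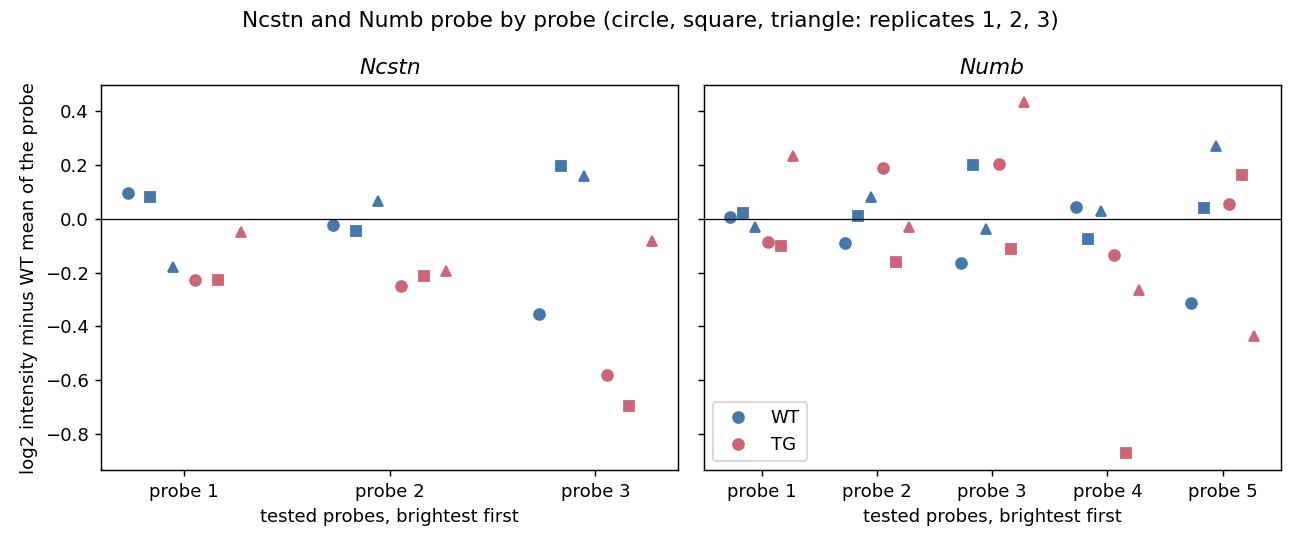
Normalised log2 intensity of each array minus the WT mean of the probe, for the 3 tested Ncstn probes and the 5 tested Numb probes, brightest first. The TG points of the second Ncstn probe form a tight group below the WT points, and the Numb probes scatter on both sides of 0, lowest for TG replicate 2 on the fourth.

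The genes that act on ligands and on receptor sugars had positive differences within a wide spread. Mib1, whose protein is the main ligand ubiquitin ligase of the signal-sending cell, had 6.30, 6.18 and 5.84 in WT and 6.43, 6.07 and 6.24 in TG. WT replicate 3 was the lowest array, and the log2 fold change of 0.14 ± 0.16 (95% interval -0.23 to 0.52) became 0.01 without it. Rfng, which encodes a glycosyltransferase that extends the O-fucose on Notch, had 5.95, 6.56 and 6.65 in WT and 6.63, 6.35 and 6.76 in TG. WT replicate 1 stood apart from the other arrays, and the log2 fold change of 0.19 ± 0.21 (95% interval -0.28 to 0.67) was -0.03 without that array.

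The rest of the pathway was described from 7 lists of 87 further genes, of which 63 had a tested probe. The log2 fold change was above 0 for 26 of them and below 0 for 37, with a median of -0.02. By the brightest tested probe of each gene, none of the 63 passed in either direction in limma (adjusted p). An unadjusted p under 0.05 in limma was found for 3 (Hey1, Ap2b1 and Tspan33), against 3.45% of all tested probes. The groups did not overlap for 4, 2 on each side, against 7.55% of all tested probes. Dimmer tested probes of the listed genes, not counted here, had log2 fold changes from -0.52 to 0.87. Among partners of the sheddases and other ADAM genes, 7 were positive and 10 negative. Adam8, a myeloid ADAM gene, had 4.94, 4.78 and 5.09 in WT and 5.32, 5.10 and 5.30 in TG (log2 fold change 0.30 ± 0.13). This probe, the only 1 of its 3 that was tested, was as dim as that of Adam10, with detection on 2 WT and 3 TG arrays. Tspan33, a tetraspanin of the group that escorts ADAM10 to the cell surface, had -0.44 ± 0.17. It passed the filter through WT, the group where it is higher, with detection on 3 WT arrays and 1 TG array, so its value is a description. Of the other gamma-secretase genes only Rer1 (-0.12 ± 0.18) and Tmed10 (-0.01 ± 0.12), which act on trafficking or activity of the complex, were tested. The dimmer tested probe of Rer1 had 0.003 ± 0.12 and that of Tmed10 0.06 ± 0.13.

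Among Numb partners, endocytic adaptors and Notch ubiquitin ligases, 10 were positive and 8 negative. Ap2b1 encodes a subunit of the AP-2 clathrin adaptor, through which Numb is linked to endocytosis. Its values were 9.42, 9.37 and 9.10 in WT and 10.05, 9.40 and 10.04 in TG. TG replicate 2 lay inside the WT range, and the log2 fold change was 0.53 ± 0.20 (SE), with 0.0267 as unadjusted and 0.9998 as adjusted p in limma. Its other tested probes had 0.04 ± 0.15, 0.41 ± 0.12 and -0.02 ± 0.14, so they do not give one size. The ubiquitin ligase gene Nedd4l had 0.14 ± 0.13. In ligand endocytosis, 5 were positive and 2 negative, with the ligase gene Neurl2 at 0.26 ± 0.14 and the clathrin heavy chain gene Cltc at 0.16 ± 0.12. The other tested Cltc probes had 0.23 ± 0.16 and -0.02 ± 0.12. Of the receptor glycosylation genes, Poglut1 had 0.12 ± 0.12 and the Fringe gene Mfng -0.07 ± 0.14, and Lfng did not pass the detection filter.

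Receptors and ligands had 1 positive and 6 negative values, with Notch3 at -0.18 ± 0.15 and Jag2 at -0.16 ± 0.22. Nuclear effectors and coactivators had 2 positive and 8 negative, with the coactivator gene Snw1 at 0.35 ± 0.16. The Notch target gene Hey1 had 10.07, 9.61 and 10.22 in WT and 9.43, 9.49 and 9.36 in TG. All TG arrays lay below all WT arrays, and the difference was -0.54 ± 0.17 on the log2 scale, with 0.0129 as unadjusted and 0.9998 as adjusted p in limma.

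The skull roof RNA held marker transcripts of other tissues at levels that varied between arrays, and fewer cells of a type cannot be told apart from less RNA per cell. Relative to its mean over the 6 arrays, the skeletal muscle list (25 of 28 genes tested) ranged from -0.52 to 1.07 in WT and from -1.37 to 0.65 in TG, and the neutrophil and myeloid progenitor list (11 of 14) from -0.03 to 0.51 in WT and from -1.05 to 0.20 in TG. The chondrocyte list (13 of 14) ranged from -0.71 to 0.10 in WT and from -0.25 to 0.85 in TG, the erythroid list (5 of 12) from -0.16 to 0.74 and from -0.36 to -0.22, and the neural and glial list (5 of 11) from -0.80 to 0.67 and from -0.44 to 0.64. The macrophage, endothelial and osteoclast lists stayed within -0.26 and 0.22 on every array. The osteoblast list (9 of 11) ranged from -0.04 to 0.24 in WT and from -0.19 to 0.01 in TG, with 6 of 9 log2 fold changes negative and a median of -0.25. Negative log2 fold changes numbered 22 of 25 for skeletal muscle (median -0.31) and 4 of 5 for the erythroid list (-0.45). In the neutrophil and myeloid progenitor list 11 of 11 were negative (-0.50). Positive ones numbered 12 of 13 for chondrocytes (0.34) and 3 of 5 for the neural and glial list (0.21). The macrophage, endothelial and osteoclast medians were -0.05, -0.01 and -0.09. In the neural and glial list, Gfap and Snap25 did not pass the detection filter. The mean over the 10 genes of Notch cleavage and Numb regulation was -0.05 on TG replicate 2 and 0.08 on TG replicate 3, the lowest and the highest array. The part of the tissue makeup in any value above was not tested.

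**Figure D4:**
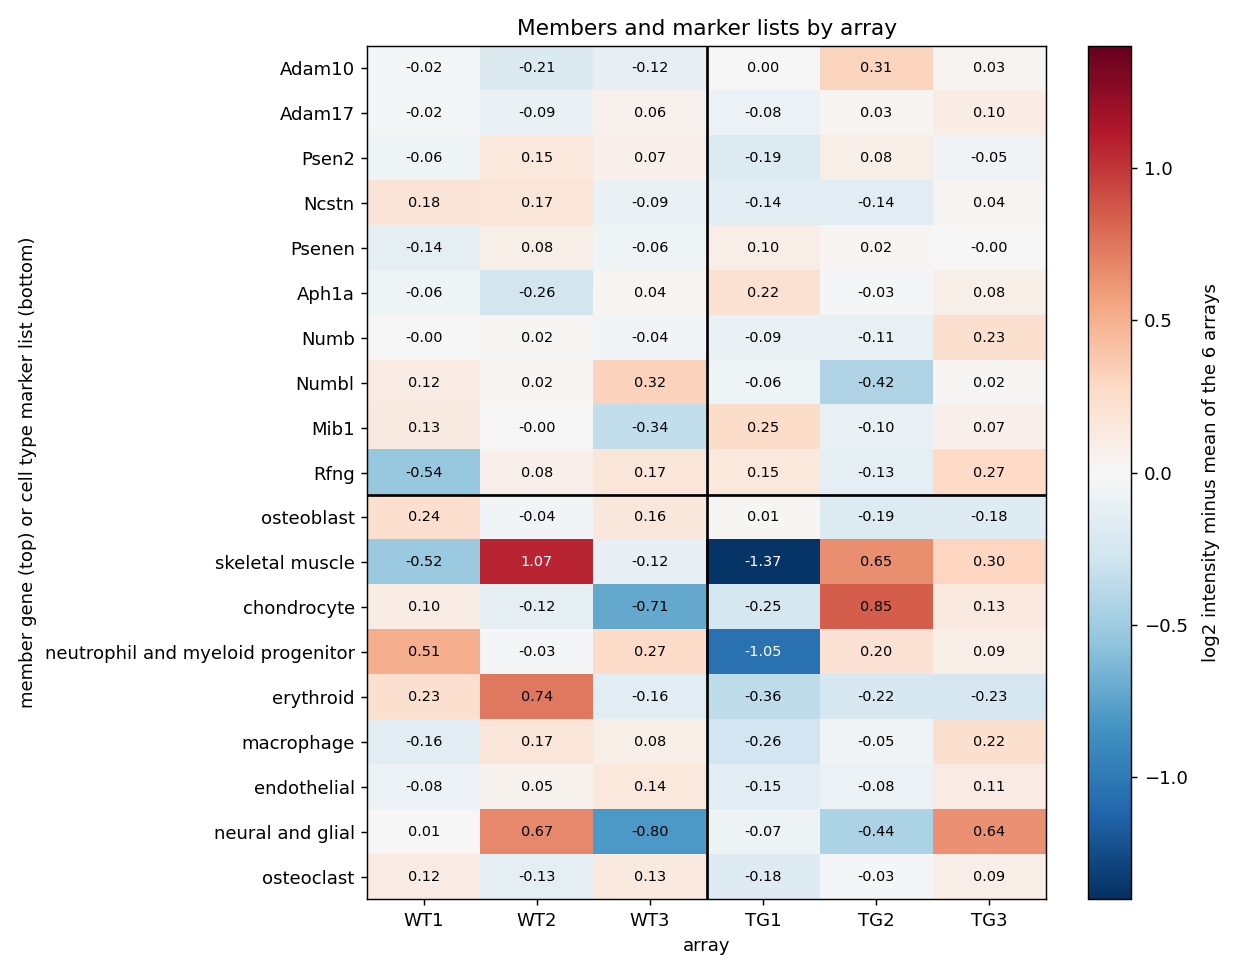
Normalised log2 intensity minus the mean of the 6 arrays, for the 10 genes (top) and as the mean over the tested genes of each marker list (bottom). Skeletal muscle reaches 1.07 on WT replicate 2 and -1.37 on TG replicate 1, while the 10 genes stay between -0.54 and 0.32.

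Windows of 300 bases around annotated transcript starts were found for 9 of the 10 genes, 13 windows in all (RefSeq, GRCm38.p6, from C57BL/6J and not from the FVB/N mice measured). They are shown for the 2 genes with the lowest log2 fold changes among the 10 on their brightest probe, Numbl and Ncstn, and for Aph1a, whose window holds the RBPJ core motif. The motif searched was TGGGAA on both strands, marked in capitals.
Numbl promoter window, chr7:27258511-27258810, plus strand: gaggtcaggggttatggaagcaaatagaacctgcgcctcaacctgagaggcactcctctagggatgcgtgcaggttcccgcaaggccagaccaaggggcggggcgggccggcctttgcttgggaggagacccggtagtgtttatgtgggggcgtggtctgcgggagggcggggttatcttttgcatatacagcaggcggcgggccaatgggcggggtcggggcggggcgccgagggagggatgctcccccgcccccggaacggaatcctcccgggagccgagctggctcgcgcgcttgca
Ncstn promoter window, chr1:172082700-172082999, minus strand: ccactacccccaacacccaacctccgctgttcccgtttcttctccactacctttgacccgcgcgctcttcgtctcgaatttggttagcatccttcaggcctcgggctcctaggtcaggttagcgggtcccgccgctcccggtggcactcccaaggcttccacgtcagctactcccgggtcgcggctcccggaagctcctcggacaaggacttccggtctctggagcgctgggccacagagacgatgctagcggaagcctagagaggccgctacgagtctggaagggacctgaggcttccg
Aph1a promoter window, chr3:95893671-95893970, plus strand: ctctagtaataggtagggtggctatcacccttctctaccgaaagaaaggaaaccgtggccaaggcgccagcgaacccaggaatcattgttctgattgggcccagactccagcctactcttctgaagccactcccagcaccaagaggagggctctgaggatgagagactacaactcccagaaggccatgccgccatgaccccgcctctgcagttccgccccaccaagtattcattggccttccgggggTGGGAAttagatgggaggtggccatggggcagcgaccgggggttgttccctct
The motif was present in 3 of the 13 windows (23.1%), 1 each of Psen2, Psenen and Aph1a, against 25.6% of all 32851 windows of that length. The Numbl and Ncstn windows hold no such letters, which says nothing of RBPJ binding elsewhere. The median G+C content was 58.3% for the 13 windows and 52.7% for all, and the median number of CpG dinucleotides was 23 and 7, so the genes of this set mostly have the CpG-rich starts known from broadly expressed genes.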

How the data were processed

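Total RNA of WT and TG calvaria was measured on Illumina bead arrays, 3 for each group. The authors deposited, per the file headers, a linear intensity per probe and array that was not normalised, and a detection p-value beside it. The authors also deposited normalised log2 values; lumi is named in the submitters' processing notes, and the sources used here give no further step. The table ends with 974 control rows, whose header gives other replicate numbers and another age than the sample labels; the last 936 were used as negative controls, since detection p-values recomputed from them differed by at most 0.0139 from those deposited.

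Background was removed in limma 3.58.1 (R 4.3.3) by normal-exponential convolution on those controls with an offset of 16, and log2 values were quantile-normalised. Tested were 20632 probes with a detection p under 0.05 on at least 3 of 6 arrays, standing for 11204 genes. Symbols came from the platform annotation: 34885 of 45281 probes had 1 symbol, 18 several and 10378 none. TG was compared with WT by limma with empirical Bayes moderation, two-sided, adjusted by Benjamini-Hochberg with a threshold of 0.05. The brightest tested probe stood for a gene. All 25 probes of the 10 genes are described, and of each other Notch pathway list the 2 genes with the smallest p are named; genes of the marker lists are named as a check of the tissue, chosen after their values were seen. The genes, lists and tests were chosen with earlier results of these data known. The fit was tested on simulated data. The number of arrays limits the precision. Alternatives were other background, normalisation, offset, filter and variance settings, array weights, a replicate block, a Y-linked covariate, other probes and leaving out each array.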

Additional observations from a re-analysis of the deposited data

How the results depend on the processing

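Of 177 values of the 10 genes under alternatives, 167 kept their sign, 10 changed it, and 0 had an adjusted p under 0.05 in limma. The 167 include the detection filter, variance and replicate block settings. These leave the log2 fold change of a probe as it was, so a change of sign was not possible there. The sign of Adam17 turned with the Y-linked covariate (-0.079), that of Numb with the same covariate (-0.12), with the mean of its tested probes (-0.061) and on 3 other Numb probes (-0.00048, -0.42 and -0.072). Leaving out 1 array gave -0.0057 to 0.083 for Adam17, -0.093 to 0.075 for Numb, -0.028 to 0.33 for Rfng and -0.40 to -0.18 for Numbl. Genes whose groups do not overlap numbered 1 of 9 when detection on all 6 arrays was required, which left Adam10 untested, and 2 to 4 on leaving out 1 array, where 15.8% to 18.5% of all probes did not overlap. Over all probes, 0 were called under each alternative except that 2, Xist and Kdm5d, passed without TG replicate 1 (0 to 2 on leaving out 1 array). Without background correction Numbl had -0.15, Adam10 0.06, Rfng 0.08 and Mib1 0.05. With the Y-linked covariate, which was lower on every TG array than on any WT array, Mib1 had 0.40 ± 0.24 (SE).

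Deviations of WT and TG arrays with the same replicate number correlated at 0.26, 0.15 and -0.17. Those with different numbers correlated at -0.37 to 0.29, so the numbers were not taken to pair the samples. With a replicate block, 0 probes were called and 789 had an unadjusted p under 0.05, against 711 without it.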

Other observations

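The 3 genes whose profile over the 6 arrays was closest to that of Numbl, by the root-mean-square distance between profiles centred on their means, were Atp2c1 (0.041 log2 units), encoding a Golgi calcium pump, Dsn1 (0.046), encoding a kinetochore protein, and Lipt2 (0.050), encoding an enzyme of lipoate synthesis. The Numbl profile itself had a root-mean-square deviation of 0.22 from its mean. The 3 genes were picked as the nearest of all named genes tested, so their closeness is a description of these arrays. Their log2 fold changes were -0.29, -0.27 and -0.33.

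Of the 25 probes, 9 were not tested, with raw intensities near the negative controls. The Aph1a probes detected on no array had 130.1, 124.1 and 117.4 in WT and 111.5, 105.4 and 119.4 in TG on one, and 110.5, 124.5 and 112.2 against 126.6, 116.9 and 115.9 on the other, which differ in direction. The remaining untested Aph1a probe, detected on 1 WT array, had 120.0, 157.1 and 124.0 in WT and 124.1, 126.0 and 129.3 in TG.

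The second Numbl probe, detected on 1 WT array, had 126.3, 126.4 and 131.1 in WT and 119.3, 118.8 and 129.5 in TG. The second Adam10 probe, also detected on 1 WT array, had 128.0, 139.7 and 115.9 against 131.5, 122.1 and 126.2. The second Adam17 probe, detected on 2 WT arrays, had 4.56, 5.24 and 5.08 against 4.82, 4.83 and 4.55 (normalised log2 intensity). The untested probes of Psen2 (113.8 to 129.7), Ncstn (108.5 to 126.1) and Numb (113.9 to 128.4) were detected on no array. WT and TG overlapped in raw intensity on all 9 of these probes. After normalisation the Aph1a probe with 130.1, 124.1 and 117.4 in WT had all TG arrays below all WT arrays. The gap was 0.06 log2 units and the difference -0.22, on a probe detected on no array.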
